A study of Homo sapiens with 6 samples.

Results

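Pyrimidine and deoxynucleotide synthesis genes were examined in lists of N-Myc and JMJD6 binding sites from human CHP-134 neuroblastoma cells. The 9 genes CAD, DHODH, UMPS, CTPS1, RRM1, RRM2, TYMS, DTYMK and DUT were chosen by name, with earlier results of these data known. All 9 are reported, listed or not. A gene was counted as listed when its symbol stood beside a promoter, typical enhancer or super-enhancer bound by either protein, and peaks were taken when they overlapped such a region. Of the 9 genes, 6 were listed for at least 1 region, among 7516 of 20133 annotated protein-coding genes in the whole series. CTPS1, RRM1 and DUT were not listed.

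The data came from chromatin immunoprecipitation followed by sequencing (ChIP-seq), which recovers the DNA fragments that a protein is cross-linked to. N-Myc, the transcription factor encoded by MYCN, was pulled down in 3 samples with the antibody sc-53993, and JMJD6, an oxygenase of the jumonji family described as a histone arginine demethylase, in 3 samples with the antibody ab64575. CHP-134 is a single established line, which the study describes as MYCN-amplified, and the labels name no treatment other than the cross-linking. N-Myc samples were cross-linked with formaldehyde alone and JMJD6 samples with DSG (disuccinimidyl glutarate) and then formaldehyde, so differences between the proteins and between the protocols cannot be told apart.

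The values were positions of common peaks, those called in all 3 replicates of a protein. Common N-Myc peaks numbered 10172 and common JMJD6 peaks 561, and their median widths were 418 bp and 435 bp. The lists hold no height, score, read count or value per sample. The depth behind a peak is therefore unknown here, no spread between replicates could be computed, and nothing below was tested. Of 8 sympathetic neuroblastoma identity genes used to check the cell type, 3 were named for N-Myc super-enhancers, HAND2 and GATA3 among them. N-Myc typical enhancers named 6 of the 8. The shares over all protein-coding genes were 1.31% and 31.9%. A listed N-Myc promoter was found for 0 of the 8, against 18.3% of autosomal protein-coding genes, and DBH was in none of the lists. Coordinates are 1-based on GRCh37.

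Cells make pyrimidines from simple precursors in a fixed order. CAD carries out the opening steps as 1 large protein with several activities, DHODH oxidises dihydroorotate at the inner mitochondrial membrane, and UMPS closes the route with uridine monophosphate. CTPS1 turns UTP into CTP. Ribonucleotide reductase, built from the large subunit RRM1 and the small subunit RRM2, converts ribonucleotides to deoxyribonucleotides. DUT removes dUTP and yields dUMP, TYMS methylates dUMP to dTMP, and DTYMK phosphorylates dTMP on the way to dTTP. Myc proteins bind as dimers with MAX to E-boxes, of which CACGTG is the canonical form, and CAD has long served as a model Myc target.

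The canonical E-boxes inside common N-Myc peaks at these genes are shown first, since they are the sequence feature that most of the peaks had in common. Below, E-box alone means CACGTG, and of the other forms only CACGCG was searched. Each line gives 22 bases of the reference genome on the strand of the named gene, 5′ to 3′, with the E-box in capitals.
CAD, chr2:27440311-27440332, plus strand: ccgttagcCACGTGgaccgact
CAD, chr2:27440340-27440361, plus strand: gccgtcctCACGTGgttccagt
DHODH, chr16:72042476-72042497, plus strand: ctactgcgCACGTGcacccaac
DHODH, chr16:72042848-72042869, plus strand: tgcatttgCACGTGgactcggt
UMPS, chr3:124449680-124449701, plus strand: cgcttagaCACGTGttttgcaa
RRM2, chr2:10261026-10261047, plus strand: caaaaaagCACGTGgcgcccta
DTYMK, chr2:242626836-242626857, minus strand: acaattgcCACGTGgccagcgt
DTYMK, second peak, chr2:242640742-242640763, minus strand: cgaaaaggCACGTGcggcagta

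The promoter list for N-Myc named 5 of the 9 genes, namely CAD, DHODH, UMPS, TYMS and DTYMK. Over all autosomal protein-coding genes it named 3526 of 19220, or 18.3%. Promoters in the list span 1 kb on each side of a RefSeq start site, and a listed promoter overlapped a common peak. The JMJD6 promoter list named 0 of the 9 genes, against 0.656% of autosomal protein-coding genes. At that share, a count of 0 among 9 genes does not set them apart from the rest.

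Typical N-Myc enhancers were assigned to 6 of the 9 genes, the same 5 and RRM2, against 31.9% of protein-coding genes. For each of the same 5 genes, an assigned enhancer overlapped the gene's own listed promoter and the same common peak. The enhancer count is therefore not separate from the promoter count. Typical enhancers are H3K27ac regions that were stitched together and paired with up to 2 nearest genes. The study's methods state that H3K27ac peaks within 1 kb of start sites were subtracted first. Yet enhancers assigned to the same 5 genes lay over their start sites or within 1 kb of them. Why they did was not examined. No JMJD6 enhancer was assigned to any of the 9 genes, against 0.909% of protein-coding genes. Super-enhancers were assigned to 0 of the 9 genes for N-Myc and 0 for JMJD6, where the shares over protein-coding genes were 1.31% and 0.0745%. Regions bound by both proteins named 0 of the 9 genes. Among all genes, the share was 0.312% of autosomal protein-coding genes for promoters, and of protein-coding genes it was 0.621% for typical enhancers and 0.0546% for super-enhancers.

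**Figure D1:**
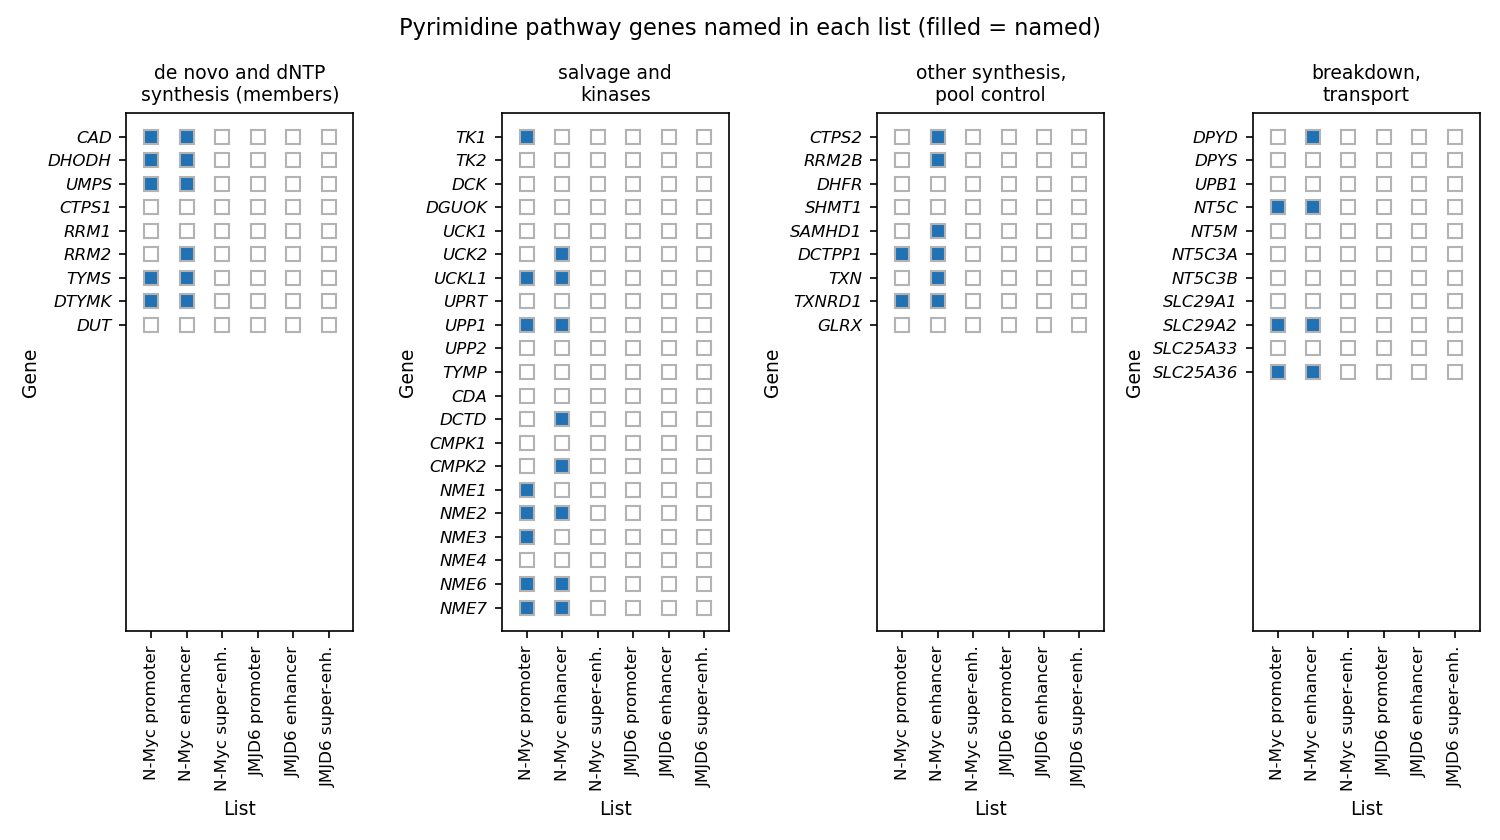
Genes of pyrimidine metabolism (rows) against the 6 kinds of list (columns), in 4 panels by role. A filled square means that the list names the gene; blue stands for N-Myc and orange for JMJD6. Filled squares appear in the N-Myc promoter and typical enhancer columns, with 5 and 6 of the 9 genes in the left panel, and no JMJD6 square is filled.

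Regions listed for the 9 genes held 10 distinct common N-Myc peaks. Of the 10, 0 overlapped a JMJD6 peak. Over all common N-Myc peaks 2.37% did, so the count does not set the 10 apart. The first enzymes of the route are described first.

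At CAD, the common peak covered chr2:27440298-27440917 and was 620 bp wide. It began 41 bp and ended 660 bp downstream of the listed start site, so that the start itself lay outside it. The centre was 350 bp downstream, in an intron of CAD. Both E-boxes lay near the upstream edge, in the untranslated part of an exon, starting 62 bp and 91 bp after the start site. They were 285 bp and 256 bp from the peak centre. An E2F motif, TTTCCCGC, began 330 bp after the start site and 16 bp from the centre, within the intronic sequence cccgccatTTTCCCGCcagcgtac at chr2:27440579-27440602 (plus strand, motif in capitals). An E2F motif stood in 1 of the 5 start peaks, that of CAD, and in 6.85% of all promoter peaks. The typical enhancer assigned to CAD covered chr2:27433922-27441432, 7511 bp in all, and was shared with the neighbouring SLC5A6, a vitamin transporter gene. Its centre lay 2581 bp from CAD and 2523 bp from SLC5A6, upstream of both. SLC5A6 had no listed N-Myc promoter.

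DHODH had the widest start peak of the 5, with 810 bp at chr16:72042256-72043065. It was also the most centred. It ran from 386 bp upstream to 423 bp downstream and its centre fell 18 bp after the start site. One E-box began 158 bp upstream and the other 214 bp downstream, so the pair flanked the start, 173 bp and 199 bp from the peak centre. A typical enhancer of 409 bp at chr16:72042699-72043107 lay over the downstream part of the same peak. It was assigned to DHODH and to HP, the haptoglobin gene, whose start was 45591 bp away.

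UMPS was assigned 3 enhancers and held 3 of the 10 peaks. The peak at its start, chr3:124449266-124449810, was 545 bp wide and its centre lay 326 bp downstream in an intron. Its E-box began 476 bp after the start site, the farthest downstream among these genes. The 200 bases around it are intronic in UMPS and are printed to show the E-box in its surroundings, on the plus strand with the E-box in capitals.
UMPS, chr3:124449590-124449789: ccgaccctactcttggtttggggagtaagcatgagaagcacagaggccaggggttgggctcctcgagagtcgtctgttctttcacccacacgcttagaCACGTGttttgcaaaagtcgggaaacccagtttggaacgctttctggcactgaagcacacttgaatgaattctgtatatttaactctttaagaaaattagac

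The other UMPS peaks lay far from the gene. They were 426 bp and 467 bp wide, at chr3:123920557-123920982 and chr3:124036963-124037429, inside introns of KALRN. Their enhancers, of 17505 bp and 1743 bp, were centred 521720 bp and 412120 bp upstream of UMPS and were closer to the KALRN start, at 113965 bp and 223565 bp. Neither peak held CACGTG or the noncanonical E-box CACGCG. Their ratios of observed to expected CpG were 0.077 and 0.125, whereas the UMPS start peak had 0.793. The assignment of these enhancers to UMPS rests on position alone.

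CTPS1 was in none of the lists. Its nearest common N-Myc peak was centred 27.2 kb upstream and its nearest JMJD6 peak 504 kb upstream. Neither CACGTG nor CACGCG, and no E2F motif, was found within 1 kb of its canonical start site.

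Both subunits of ribonucleotide reductase lacked a listed promoter, but their surroundings differed. For RRM1, the nearest N-Myc peak was 253 kb away. A peak of 388 bp lay upstream of RRM2, at chr2:10260840-10261227, with its centre 1833 bp before the canonical start site at 10262866 and its near edge 1639 bp before it, which is outside the 1 kb that defines a listed promoter. GENCODE holds 14 start sites for RRM2, and the first of them, at 10260825 and 10260861, lie at the upstream edge of this peak. Measured from the nearest of these, the peak centre was 172 bp away. The E-box there was 4 bp from the peak centre, whereas at the 4 genes with an E-box in a start peak the copy nearest to the centre was between 153 bp and 256 bp from it. The 126 bases around the RRM2 E-box are printed because this is the E-box nearest to a peak centre among the 9 genes. They are intronic in the longer RRM2 transcripts (plus strand, E-box in capitals).
RRM2, chr2:10261010-10261135: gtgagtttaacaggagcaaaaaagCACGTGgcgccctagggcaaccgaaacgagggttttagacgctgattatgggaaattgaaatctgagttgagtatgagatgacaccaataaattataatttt

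The enhancer assigned to RRM2, chr2:10260857-10264188, was 3332 bp long and overlapped the peak and covered the canonical start. It overlapped no N-Myc promoter of any gene. When peaks were counted against annotated start sites and not against the list, 6 of the 9 genes had a common N-Myc peak centred within 1 kb of a start, RRM2 being the gene added, against 20.8% of autosomal protein-coding genes. Of the 4001 genes with such a peak, 618 (15.4%) were not named in the promoter list, so RRM2 was 1 of many. For JMJD6, 0 of the 9 genes had a peak centred within 1 kb of a start, against 0.77% of autosomal protein-coding genes.

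TYMS was the gene with a start peak that held neither CACGTG nor CACGCG. The list gave it 2 start sites, 657583 and 657603 on chromosome 18, and an overlapping promoter was listed for the antisense gene TYMSOS. The peak at chr18:657225-657578 was the narrowest of the 5, with 354 bp, and lay wholly upstream, from 378 bp to 25 bp before the later of the starts. An E2F motif began 11 bp after that start, outside the peak. The middle 200 bases of the peak are printed as the example without CACGTG or CACGCG (plus strand, no capitals).
TYMS, chr18:657301-657500: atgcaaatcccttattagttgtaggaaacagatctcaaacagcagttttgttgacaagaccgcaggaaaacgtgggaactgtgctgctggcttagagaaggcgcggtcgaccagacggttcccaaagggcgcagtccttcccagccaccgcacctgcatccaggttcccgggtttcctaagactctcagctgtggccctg

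A second peak was assigned to TYMS through an enhancer at chr18:711330-712293. It covered chr18:711182-712208 and, with 1027 bp, was wider than 96.3% of all promoter peaks. Its centre lay 54092 bp downstream of TYMS, in an intron of ENOSF1, which is transcribed from the opposite strand and whose start was 733 bp from the enhancer centre. The peak held 1 CACGCG and no CACGTG. ENOSF1 had a listed N-Myc promoter of its own, which the enhancer overlapped. Among protein-coding genes, only ENOSF1 started within 1 kb of the peak.

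DTYMK shared its peaks with ING5, a chromatin reader gene on the opposite strand with GENCODE start sites near both peaks. The peak at chr2:242626720-242627477 was 758 bp wide, and its centre lay 715 bp upstream of DTYMK, in an untranslated exon of ING5. The E-box began 466 bp upstream of DTYMK. A second peak of 479 bp, at chr2:242640412-242640890, lay 14268 bp upstream of DTYMK in an intron of ING5 and also held 1 CACGTG. Both peaks fell in a single enhancer of 17394 bp, chr2:242625333-242642726, whose centre was 7623 bp from DTYMK and 7426 bp from ING5. ING5 had 2 listed N-Myc promoters. In GENCODE, both genes have a start site within 1 kb of the first peak, which cannot be credited to either of them from position. The ING5 start behind the distance of 7426 bp is a different one. It lay beyond the enhancer centre, on the side of the second peak. Of the pair, only ING5 starts within 1 kb of the second peak.

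DUT was in none of the lists. The nearest common peaks of N-Myc and JMJD6 were 839 kb and 3600 kb from its canonical start. Over 18969 autosomal genes with a canonical start, the median distance to the nearest N-Myc peak was 54.1 kb. CTPS1 was thus nearer to a peak than this median and RRM1 and DUT were farther.

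**Figure D2:**
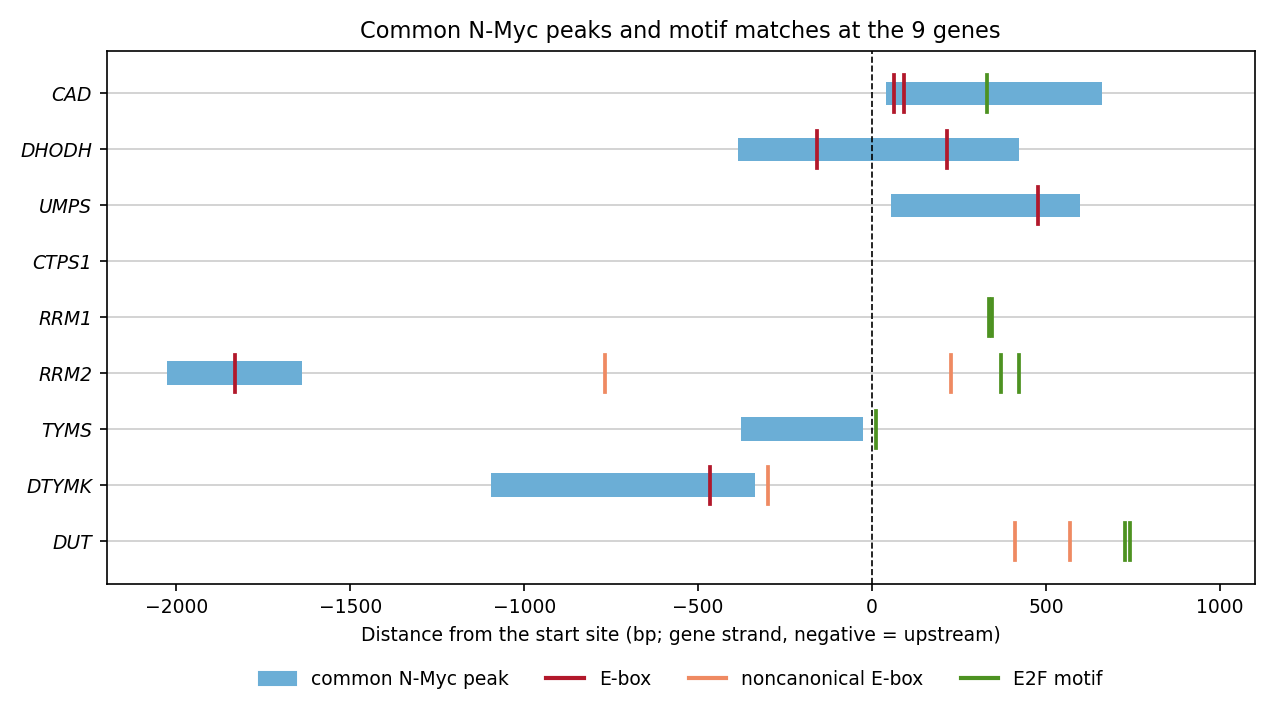
Common N-Myc peaks (blue bars) and motif matches (vertical ticks) by distance in bp from the start site of each gene, on the strand of the gene. Start sites are those of the promoter list or, for CTPS1, RRM1, RRM2 and DUT, of the canonical transcript. The peaks of CAD, DHODH, UMPS and DTYMK cover red E-box ticks, the TYMS peak covers none, and the RRM2 peak is centred 1833 bp upstream on its E-box.

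JMJD6 peaks were distant from all 9 genes. The nearest was 121 kb from CAD. It was 491 kb away for RRM2, 504 kb for CTPS1, 547 kb for TYMS and 980 kb for RRM1. For UMPS, DUT and DHODH the distances were 1360 kb, 3600 kb and 3680 kb, and for DTYMK 24300 kb. The median over autosomal genes was 2390 kb, and 0.606% of genes had a JMJD6 peak centred within 1 kb of the canonical start, so these distances lay on both sides of the median.

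**Figure D3:**
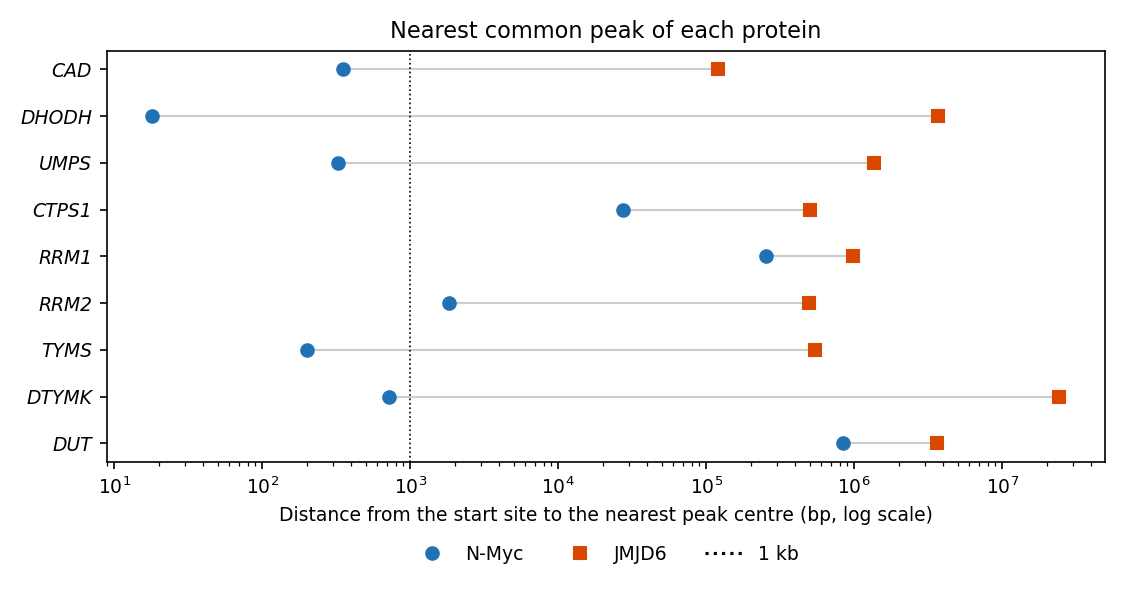
Distance in bp, on a log axis, from each gene's start site to the centre of the nearest common N-Myc peak (blue circles) and JMJD6 peak (orange squares). The dotted line marks 1 kb; 5 N-Myc circles lie to its left, and the JMJD6 squares begin at 121 kb.

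The 5 start peaks had a median width of 620 bp, from 354 bp to 810 bp, and all common N-Myc peaks in promoters (3550) had a median of 452 bp with quartiles of 343 bp and 612 bp. The DHODH peak was wider than 90.2% of these, the DTYMK peak than 87.4%, the CAD peak than 75.8% and the UMPS peak than 65.6%. The TYMS peak was wider than 27.3%. Thus 4 of the 5 lay above the median and 3 above the upper quartile. Width is not a measure of height, which the lists do not hold.

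**Figure D4:**
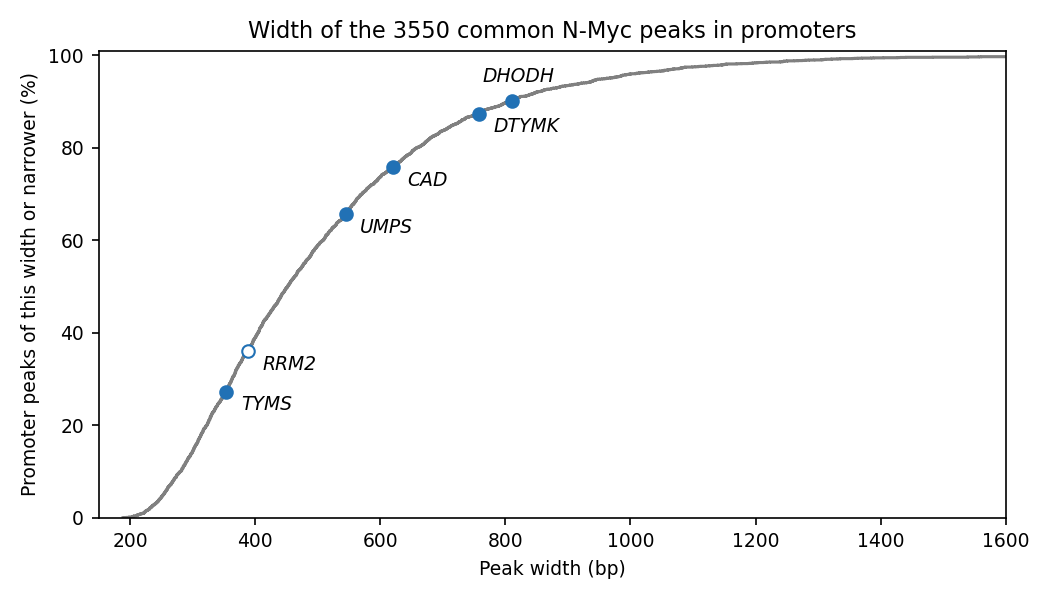
Share of the 3550 common N-Myc peaks in promoters (vertical axis, percent) at or below each width in bp (horizontal axis). Filled circles mark the start peaks of 5 genes, from TYMS at 354 bp to DHODH at 810 bp, and the open circle marks the RRM2 peak of 388 bp, which lies outside listed promoters.

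The centres of the 5 start peaks lay a median of 326 bp from the start site, from 18 bp at DHODH to 715 bp at DTYMK. Over all promoter peaks the median was 185 bp with quartiles of 71.0 bp and 465 bp. At CAD, DHODH and UMPS the centre was downstream of the start, as it was for 45.4% of all promoter peaks. GC content of the 5 peaks ranged from 54.6% to 63.7% with a median of 56.3%, near the median of 58.3% over all promoter peaks. The median ratio of observed to expected CpG was 0.767, beside 0.729 over all.

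CACGTG, which reads the same on both strands, stood in 4 of the 5 start peaks and in 36.9% of all promoter peaks. By width, the share over all promoter peaks went from 32.9% of peaks between 300 and 400 bp to 37.2% between 500 and 700 bp and 42.8% between 700 and 900 bp. Within 100 bp of the peak centre, 0 of the 5 start peaks held CACGTG, beside 23.1% of all promoter peaks. In promoter peaks with the motif, the nearest copy lay a median of 70.0 bp from the centre, with quartiles of 29.0 bp and 134 bp. The values of 256 bp at CAD, 173 bp at DHODH, 153 bp at UMPS and 251 bp at DTYMK were all above the upper quartile. These peaks were also wider than the median promoter peak, and a wider peak leaves room for larger distances. No distances matched for width are given. The lists give no summit, so the centre is the midpoint of the common interval.

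Within 1 kb of the start site, the 9 genes held 6 CACGTG motifs, all in CAD, DHODH, UMPS and DTYMK, and all 6 lay inside a common N-Myc peak. Of the 2223 CACGTG motifs within 1 kb of the canonical start of autosomal genes that had a peak there, 70.0% lay inside a peak. Genes with CACGTG in that window had a peak in 29.2% of cases and genes without it in 12.6%. CTPS1, RRM1, RRM2, TYMS and DUT had no CACGTG in the window, beside 29.3% of all genes with at least 1. The noncanonical form CACGCG, also counted on both strands, was found near RRM2 and DUT, with 2 copies each, and DTYMK, with 1. It stood in the same window in 41.6% of all genes. None of the 5 copies lay in a common N-Myc peak, and 29.2% of all promoter peaks held the motif.

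E2F motifs, searched as TTTGGCGC or TTTCCCGC on both strands, were found within 1 kb of the start in 5 of the 9 genes, CAD, RRM1, RRM2, TYMS and DUT, and in 10.6% of all genes. E2F factors are textbook regulators of genes for DNA precursor synthesis in S phase. RRM1 had 2 copies, 336 bp and 345 bp downstream of the start, RRM2 had 2 at 370 bp and 421 bp, and DUT had 2 at 726 bp and 741 bp. Of the 8 copies, only that of CAD lay in a common N-Myc peak. Matches to these letters are descriptions of the sequence, and no binding of E2F proteins was measured.

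The windows of 250 bases before to 50 after each RefSeq start (GRCh38.p14) were also searched, with 14 windows matched to the 9 genes. CACGTG occurred in the DHODH window alone, 159 bp upstream, and in 7.26% of all 35116 windows. CACGCG occurred at DUT, 200 bp upstream of 1 of its starts, and in 11.4% of windows. E2F motifs occurred at TYMS, 39 bp upstream, and at the same DUT start, 42 bp and 27 bp upstream, and in 2.27% of windows. The DHODH, TYMS and DUT matches are copies already counted above, measured here from other start sites, and add no further motifs.

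Other genes of pyrimidine metabolism were counted in the same way. The shares over all genes were 18.3% of autosomal protein-coding genes for N-Myc promoters and 31.9% of protein-coding genes for typical enhancers. No group was tested against these shares. In salvage and nucleotide kinases, 8 of 21 genes had a listed N-Myc promoter and 8 a typical enhancer. The widest peak, 1153 bp, was at NME1, a nucleoside diphosphate kinase, followed by 578 bp at NME3, 430 bp at the thymidine kinase TK1, 395 bp at UCKL1 and 373 bp at NME6. Among other genes of synthesis and pool control, 3 of 10 had a listed promoter and 7 an enhancer. Here DCTPP1, which hydrolyses dCTP, had a peak of 1126 bp and the thioredoxin reductase TXNRD1 a peak of 687 bp. Among breakdown and transport genes, 3 of 11 had a listed promoter and 4 an enhancer. The nucleoside transporter SLC29A2 had a peak of 759 bp, the nucleotidase NT5C one of 708 bp and the mitochondrial carrier SLC25A36 one of 345 bp. JMJD6 lists named 0 genes of any of these groups. Over all genes the JMJD6 shares were 0.656% for promoters, 0.909% for typical enhancers and 0.0745% for super-enhancers. The promoter lists hold 0 regions on chromosome X, so no promoter could be listed for UPRT and CTPS2, which lie there. An N-Myc enhancer was assigned to CTPS2.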

How the data were processed

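The deposited files are lists of positions in bp with no score, made by the authors from 3 N-Myc and 3 JMJD6 samples. According to the study's methods and the submitters' processing notes, reads were aligned with BWA to hg19, handled with SAMtools and bedtools, and peaks called with MACS2 (2.1.1.20160309) against input at a q-value under 0.05. Enhancers came from ROSE, stitched within 12.5 kb, and nearest genes from GREAT. Pooling over replicates left no value per sample.

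Gene symbols were matched exactly. Peaks were joined to regions by an overlap of at least 1 bp. Start sites came from the promoter lists or, where none was listed, from the canonical transcript of GENCODE version 44 lifted to GRCh37. Of 4463 N-Myc promoters matched to that annotation, 87.9% were centred within 100 bp of an annotated start. Promoter sequences were from RefSeq (GRCh38.p14). Python 3.11.15, numpy 2.4.6, pysam 0.24.0 and matplotlib 3.10.9 were used. Overlap, distance and motif steps were tested on simulated data. All 9 genes are named, with their neighbours and, of each other list, up to 5 genes with the widest N-Myc promoter peak. Some genes covered by these rules are counted but not reported by name here, and 1 is not drawn in the figure of the lists. The genes, lists and motifs were chosen with earlier results of these data known.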

Additional observations from a re-analysis of the deposited data

How the results depend on the processing

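Of 18 alternative values, 16 stayed within 1.5 times the reported value. Some of these had little or no room to move, such as requiring a common peak in a listed promoter. The tally is therefore not a measure of stability. Requiring that an enhancer overlap no N-Myc promoter left 2 of the 6 genes with an enhancer, UMPS through its KALRN enhancers and RRM2. No share over all genes is given under this condition. A search limited to 100 bp either way from the centre left 0 of the 5 start peaks with CACGTG, where the whole peaks gave 4. The count of genes with an N-Myc peak at the start was 6 for annotated starts, within 1 kb and within 5 kb, and 4 when only peaks at least as wide as the median were kept. Counts for JMJD6 and for both proteins were 0 under every alternative run. No paired analysis was possible because the lists pool the replicates, and for the same reason no replicate could be left out. Without heights or counts, a peak just below the authors' threshold cannot be told from an unbound site.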

Other observations

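De novo purine synthesis, the companion route, was counted for comparison. N-Myc promoters were listed for 7 of 11 purine genes, against 18.3% of autosomal protein-coding genes. Typical N-Myc enhancers named 6 and super-enhancers 1, against 31.9% and 1.31% of protein-coding genes. JMJD6 lists named 0, where the shares over all genes were 0.656% for promoters, 0.909% for typical enhancers and 0.0745% for super-enhancers. PPAT and PAICS, which encode enzymes of the route and start close together on opposite strands, shared a common N-Myc peak of 1140 bp. No difference between the purine and pyrimidine genes was tested.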
